A study of Mus musculus with 3 samples.

Results

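The Wnt genes described here were the ligands, their Frizzled and Lrp receptors, their secreted inhibitors, the acylating enzyme Porcn, proteins of the β-catenin destruction complex and the nuclear factors Lef1 and Tcf7, as read by their probes on Agilent whole mouse genome arrays. A probe was a member if the gene name in the array file began with Wnt, Fzd, Dkk or Sfrp followed by a digit, or was any of these names (Lrp5, Lrp6, Wif1, Axin1, Axin2, Lef1, Tcf7, Ctnnb1, Apc, Gsk3b and Porcn). The rule found 64 probes of 47 genes among 41174 probes with 29273 gene names. No probe carried the name Ctnnb1. Probes named Catnb, the older name of the β-catenin gene, lie outside the rule and are given apart. Wisp genes were not members and appear only among the target genes.

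The arrays measured RNA of EpH4-PR cells on 3 arrays, numbered as replicates 1 to 3. EpH4 is a mouse mammary epithelial cell line, and EpH4-PR cells were stably transfected with the PR-A form of the progesterone receptor, selected as clones under neomycin and grown in medium with 10% FBS to about 75% confluence, with no hormone treatment named. EpH4-PR RNA carried Cy5 on every array, Stratagene mouse standard RNA carried Cy3, and dyes were not swapped. Arrays of the vector control line, EpH4-EV, were not analysed here, so each ratio sets EpH4-PR cells against the reference RNA and measures no effect of PR, and a dye effect and a true difference cannot be told apart. Nothing in the sources used here says that the 3 RNA samples came from separate cultures, and p-values then measure only the spread between these samples, which may be technical.

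Wnt proteins are secreted lipid-modified glycoproteins that bind Frizzled receptors. With the co-receptors Lrp5 and Lrp6 this stops the destruction complex (Axin, Apc and Gsk3) from marking β-catenin for breakdown, and β-catenin then acts with Lef/Tcf factors on target genes. Other Wnt proteins signal without β-catenin. In the mammary gland Wnt signalling takes part in placode formation, ductal branching and stem cell maintenance, and Wnt4 is a known target of progesterone.

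By their spread the arrays were close to each other. Across all probes the Pearson correlation of log2 ratios between arrays was 0.923 to 0.952, and across the 64 member probes it was 0.954 to 0.976, over probes that share libraries and are not independent replicates. The median Cy5 intensity of all probes was 93.8 to 113, against a median local background of 42 to 43. With 3 arrays, the precision of each value is limited by their number. Negative control spots had a median of 57.3 to 74.1 in Cy5 and 91.8 to 121 in Cy3, above the local background in both channels. Ratios of dim probes depended on the offset of 50 added in the background correction, and several probes named below were further from 0 without it. The progesterone receptor gene Pgr had 2 probes, each well above background in EpH4-PR RNA on 1 of 3 arrays, with log2 ratios of -0.11 ± 0.22 and -0.19 ± 0.08 (SD, n = 3), and the sources used here do not say whether the transfected transcript holds either probe's sequence.

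The epithelial label was checked with marker genes. All 12 luminal epithelial probes were well above background in EpH4-PR RNA on the 3 arrays, and 9 of them were called higher than in reference RNA, among them Cdh1 (E-cadherin) with a log2 ratio of 4.29 ± 0.10 and Krt18 with 1.40 ± 0.09, while Krt19 was lower at -2.62 ± 0.18. Their summed spot intensity before correction was 95516 to 111489 in the EpH4-PR channel and 11985 to 12903 in the reference channel. Such sums are not normalized between the dyes, so their ratio between channels is not a difference in RNA level. Of 22 fibroblast and mesenchyme probes none was called higher and 12 were called lower, down to -6.51 ± 0.11 for a Vim probe. Their summed spot intensity, likewise before correction, was 6131 to 6772 in the EpH4-PR channel and 46388 to 52264 in the reference channel. The basal and myoepithelial list gave 1 higher call of 17 probes (Krt14, 2.08 ± 0.14) and 2 lower. Neither the endothelial nor the adipocyte list had a called probe, of 5 and 6, and the blood list had 3 lower calls and no higher call of 10. The part of these marker differences in the Wnt ratios below was not tested, and in bulk RNA fewer cells of a type and less RNA per cell cannot be told apart.

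Most Wnt genes gave a signal in EpH4-PR RNA. A probe was counted as detected where the scanner software marked it well above its background, and 43 of the 64 member probes were detected in EpH4-PR RNA on all 3 arrays (68.7% of all probes), 9 on some arrays and 12 on none (21% of all probes). In the reference channel 47 were detected on all arrays (69% of all probes) and 5 on none (10.3% of all probes), and 41 were detected on all arrays in both channels (62.3% of all probes). These shares of members lie near those of all probes. Against a stricter level, the 95th percentile of negative control spots, 42 member probes stood above it in EpH4-PR RNA on all arrays (66.5% of all probes), but only 14 did so in reference RNA (33.1% of all probes) and 13 in both (32.7% of all probes). By gene, 35 of 47 had a probe detected in EpH4-PR RNA on all arrays, 7 had none on any array and 5 lay between. All 10 Frizzled genes, both co-receptors, all 4 genes of the destruction complex, both nuclear factors and Porcn were detected on all arrays through at least 1 probe. Detection was less complete among ligands, with 12 of 19 genes, and among secreted inhibitors, with 4 of 9. A gene with several probes could pass through any of them, and no share over all gene names was counted. By probe, 13 of 16 Frizzled, 13 of 23 ligand and 4 of 10 secreted inhibitor probes were detected in EpH4-PR RNA on all arrays.

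Relative to reference RNA, 2 member probes were called higher in EpH4-PR RNA (2.25% of all probes were) and 5 were called lower (3.85% of all probes), 7 in all against 6.1% of all probes. A call needed a limma adjusted p under 0.05 and a mean log2 ratio of at least 1 in size. The higher probes were those of Wnt10a and Wnt7b, and the lower ones were single probes of Wnt6, Fzd1, Sfrp2, Lef1 and Tcf7. By adjusted p alone 36 of the 64 passed, 15 higher and 21 lower, where 50.3% of all probes passed. The members' median log2 ratio was -0.02 and that of all probes -0.01, and the members ranged from -2.55 to 2.23 with a median SD between arrays of 0.09. The higher calls were near the share of all probes and the lower calls above it, on counts too small to read more from, and the members' middle sat where that of all probes sat.

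**Figure D1:**
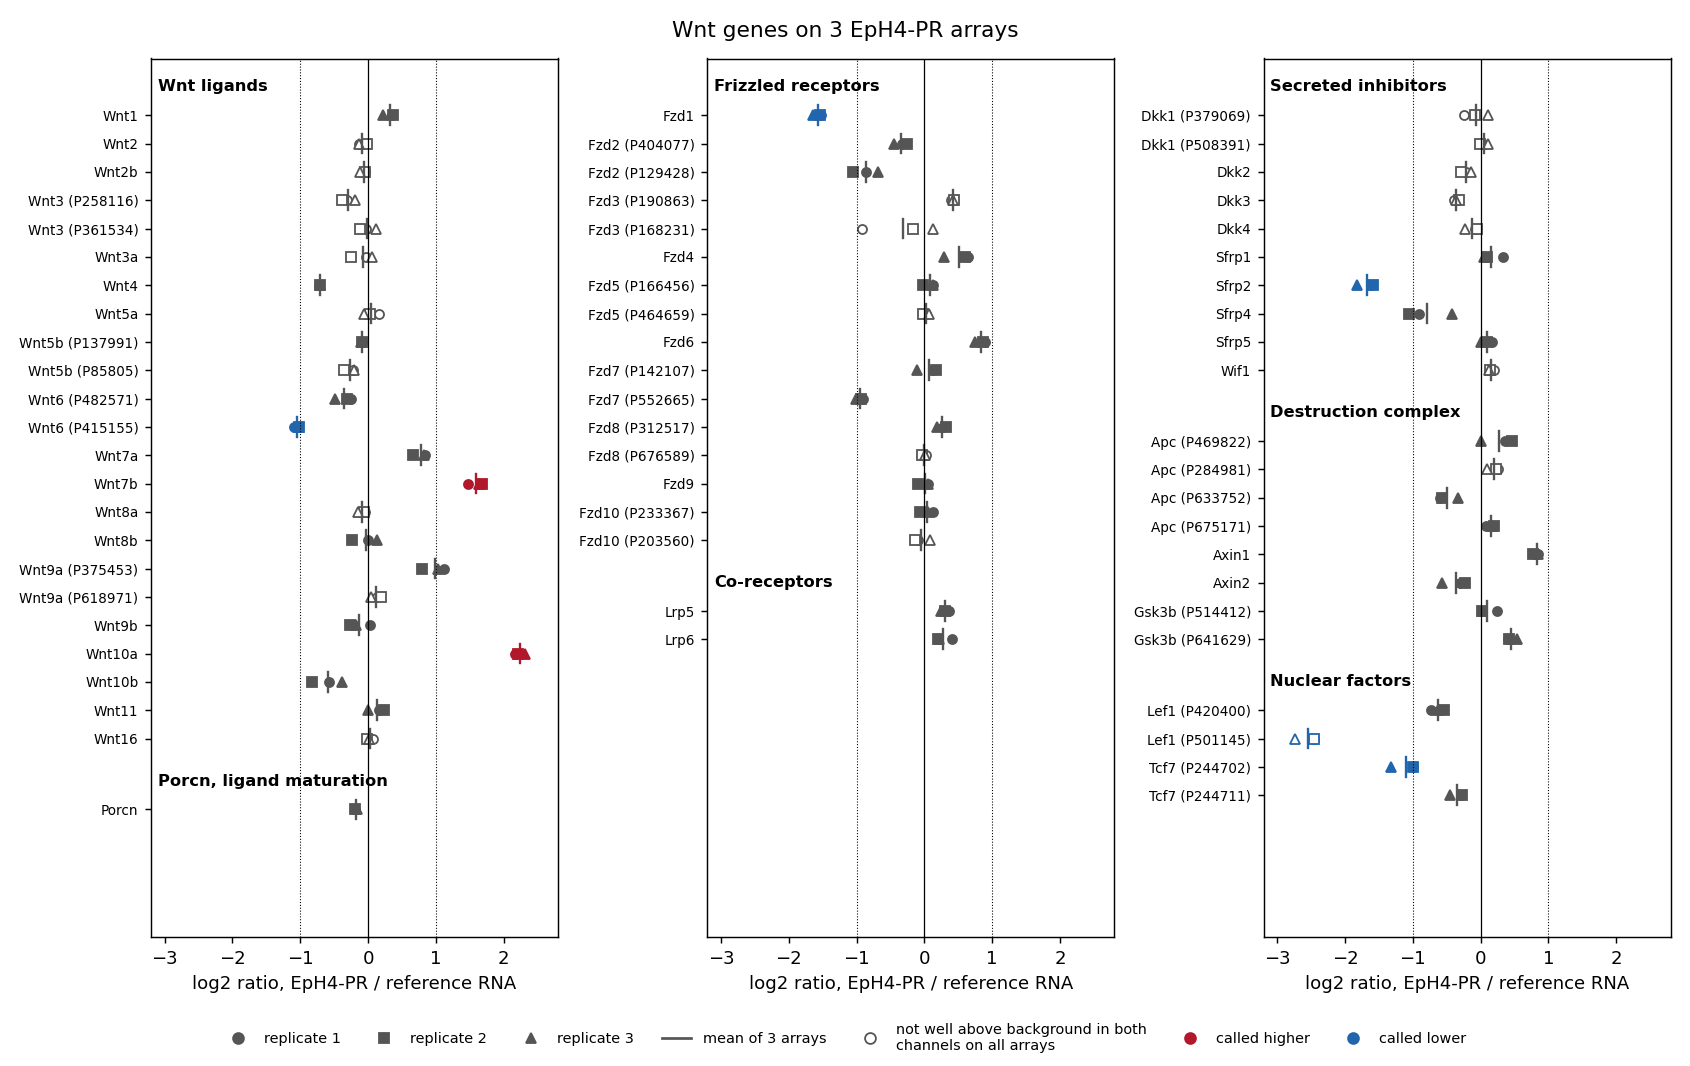
Log2 ratio, EpH4-PR against reference (horizontal axis), for each of the 64 Wnt member probes (vertical axis, grouped by role; the number in brackets is the end of the probe name where a gene has several), with 1 symbol per array and a bar at the mean. Filled symbols mark probes that passed in both channels on every array (well above background), dotted lines mark log2 ratios of 1 and -1, and red and blue mark the 2 probes called higher and the 5 called lower; most other probes lie close to 0, and the 3 arrays of most probes lie close together, with wider spreads for a Fzd3 probe, Sfrp4, an Apc probe and Wnt10b.

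Among the ligands, Wnt10a and Wnt7b stood out as higher in EpH4-PR cells. Both are ligands of the β-catenin branch known from mammary epithelium and skin. Wnt10a read 9153, 7431 and 9013 in the EpH4-PR channel and 720, 603 and 639 in the reference channel on replicates 1, 2 and 3 (mean spot intensity before correction). After correction and normalization its log2 ratios were 2.16, 2.22 and 2.32. All arrays were high and close together, and the mean of 2.23 ± 0.08 (SD, n = 3; SE 0.05, limma adjusted p = 1.77e-05) is 4.70-fold above the reference level. Wnt7b read 1210, 1213 and 1159 in the EpH4-PR channel and 230, 211 and 183 in the reference channel. Its log2 ratios were 1.48, 1.68 and 1.64, which average 1.60 ± 0.10 (adjusted p = 3.94e-05), or 3.03-fold higher. Every array of both genes lay above the size for a call.

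Other ligands were above the reference level without reaching the size for a call. Wnt9a had log2 ratios of 1.13, 0.80 and 1.03 on 1 probe, a mean of 0.99 ± 0.17, just under the limit, and passed it at 1.08 without replicate 2, 1.68 with normexp offset 0 and 1.87 with the scanner's log ratio. The other Wnt9a probe, detected in EpH4-PR RNA on 2 of 3 arrays, had a mean of only 0.12 ± 0.07, and -0.13 with median centring in place of loess. Wnt7a, the close relative of Wnt7b, read 0.84, 0.66 and 0.82, a mean of 0.77 ± 0.10 (adjusted p = 0.000281), and was called higher at 1.69 with normexp offset 0 and at 2.47 with the scanner's log ratio. The reference signal of Wnt7a (126, 128 and 93.6) did not pass the negative controls' 95th percentile on any array. The size of its ratio therefore rests on a reference signal near background. Wnt1, the founding member first known as an oncogene of mouse mammary tumours, had 0.32 ± 0.08.

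Wnt6 was the only ligand with a lower call, and its 2 probes differed in size. The called probe had log2 ratios of -1.10, -1.02 and -1.03, a mean of -1.05 ± 0.04 (adjusted p = 6.11e-05), or 2.07-fold lower. The second probe had -0.26, -0.32 and -0.49, a mean of -0.35 ± 0.12, which turned to 0.15 with median centring in place of loess. The arrays of the 2 probes did not overlap. Wnt4 lay below the reference level by nearly the same amount on every array, at -0.72, -0.71 and -0.70 (mean -0.71 ± 0.01, adjusted p = 0.000151). Wnt10b, a relative of Wnt10a, was also below it, at -0.57, -0.83 and -0.38 (mean -0.59 ± 0.23). Neither reached the size for a call, but both were called lower with normexp offset 0 (Wnt4 -1.52, Wnt10b -1.31) and with the scanner's log ratio (-1.80 and -1.66). Their EpH4-PR signals, 92.6, 96.8 and 72.9 for Wnt4 and 88.5, 95.7 and 72.2 for Wnt10b, lay close above the negative controls' 95th percentile (85.9, 87.4 and 62.9). The sizes of both ratios therefore rest on a signal near background. Thus Wnt10a and Wnt10b lay on opposite sides of the reference level, and Wnt7a and Wnt7b on the same side.

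The remaining ligands had mean log2 ratios between -0.29 and 0.13. Wnt5a, a ligand that mostly signals without β-catenin, was detected in reference RNA on all arrays and in EpH4-PR RNA on none, and its log2 ratio of 0.04 ± 0.11 changed sign to -0.18 with median centring and to -0.62 with the scanner's own log ratio. Yet its reference intensities of 104, 109 and 88.2 lay below the median negative control spot on every array (119, 121 and 91.8). The mark of detection therefore does not show that Wnt5a was present in reference RNA. Wnt2, Wnt3, Wnt3a and Wnt8a were likewise not well above background in EpH4-PR RNA on any array. Of these, Wnt2, Wnt3a and a Wnt3 probe were each detected in reference RNA on 2 arrays, and Wnt8a and the other Wnt3 probe on none. The log2 ratios of Wnt3 (-0.29 ± 0.10), Wnt2 (-0.10 ± 0.07) and Wnt3a (-0.08 ± 0.16) give neither the size of a difference nor a bound on it. Their EpH4-PR signal was not well above background, and their reference signal did not pass the negative controls' 95th percentile on any array. Wnt5b was detected in EpH4-PR RNA on all arrays through 1 of its 2 probes and lay at -0.09 ± 0.01, but turned to 0.18 with median centring and to 0.21 with the scanner's log ratio. Porcn, which attaches the lipid to Wnt proteins, was at -0.18 ± 0.02.

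**Figure D2:**
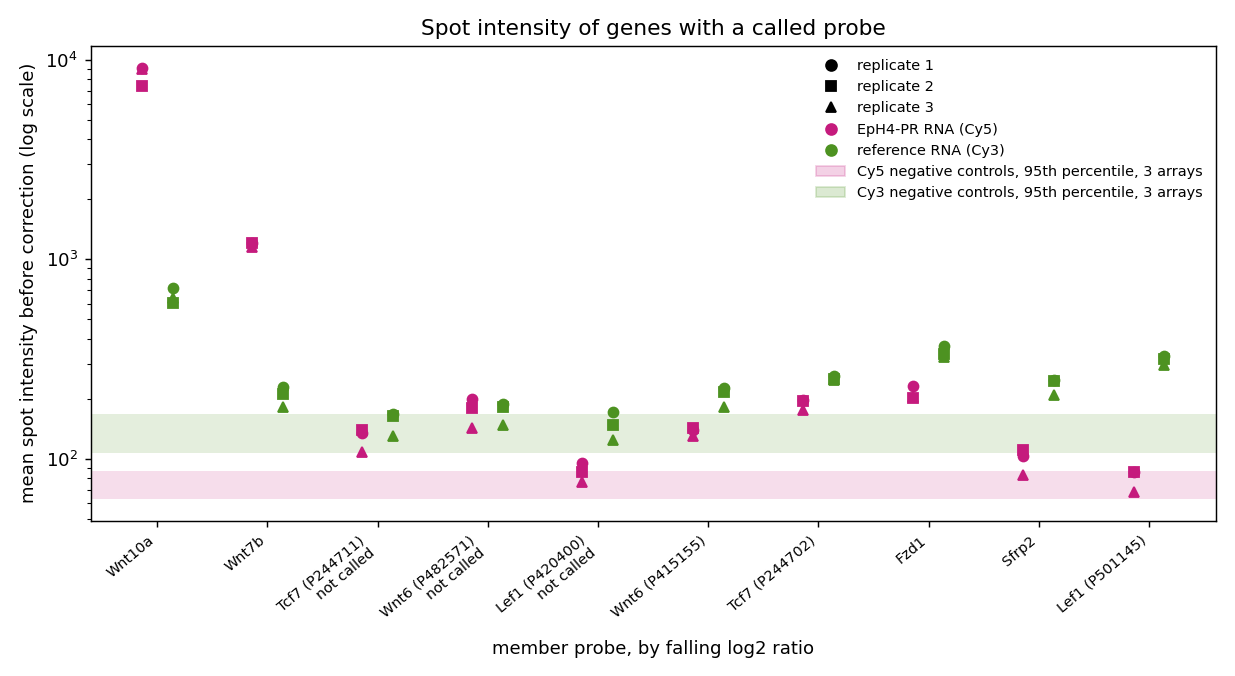
Mean spot intensity before background correction (log axis) in the EpH4-PR channel (Cy5) and the reference channel (Cy3) for the 7 called member probes and the 3 other probes of the same genes, with 1 symbol per array; the bands span the 95th percentile of negative control spots on the 3 arrays. Wnt10a and Wnt7b stand far above both bands in EpH4-PR RNA, while the Lef1 and Sfrp2 probes called lower lie in or just above the Cy5 band; the channels have different brightness, so heights are to be compared between channels only after normalization.

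Of the receptors, Fzd1 was called lower and none was called higher. Fzd1, a Frizzled that can pass signals of β-catenin ligands, read 232, 201 and 203 in the EpH4-PR channel and 367, 334 and 326 in the reference channel. Its log2 ratios of -1.52, -1.54 and -1.64 gave a mean of -1.57 ± 0.06 (adjusted p = 2.79e-05), or 2.96-fold lower. Fzd7 and Fzd2, the Frizzleds closest to Fzd1 in sequence, each had a probe well below the reference level that missed the size for a call, with means of -0.95 ± 0.05 for Fzd7 and -0.86 ± 0.18 for Fzd2. Both were called lower with normexp offset 0 (Fzd7 -1.52, Fzd2 -1.72) and with the scanner's log ratio (-1.58 and -2.04). Their other probes disagreed, at 0.06 ± 0.15 for Fzd7 and -0.34 ± 0.10 for Fzd2, and the last value became 0.64 with median centring. Fzd6 lay above the reference level at 0.89, 0.87 and 0.75 (mean 0.84 ± 0.07, adjusted p = 0.000155), as did Fzd4 at 0.64, 0.59 and 0.29 (mean 0.51 ± 0.19). Fzd6 was called higher at 1.26 with normexp offset 0 and 1.31 with the scanner's log ratio, and Fzd4 at 1.11 with the latter alone of these. The probe with the widest spread of all members belonged to Fzd3, with -0.91, -0.16 and 0.12 on replicates 1, 2 and 3. The second Fzd3 probe was close between arrays at 0.42 ± 0.02, and was called higher at 1.19 and 1.58 under the same settings. It was detected in reference RNA on only 1 of 3 arrays, so the size of its ratio rests on a reference signal near background. Fzd5, Fzd8, Fzd9 and Fzd10 had means between -0.05 and 0.26 on all their probes.

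The co-receptors Lrp5 and Lrp6, which pair with Frizzled in the β-catenin branch, were both slightly above the reference level. Lrp5 read 0.36, 0.31 and 0.24 (mean 0.30 ± 0.06, adjusted p = 0.00475) and Lrp6 read 0.41, 0.20 and 0.22 (mean 0.28 ± 0.12, adjusted p = 0.0147). Neither was near the size for a call, but Lrp5 passed it at 1.38 with median centring.

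Among the secreted inhibitors, only Sfrp2 was called, as lower. Sfrp proteins bind Wnts outside the cell, and Sfrp2 is best known from stromal cells. It read 104, 111 and 83.0 in the EpH4-PR channel and 249, 245 and 210 in the reference channel. The log2 ratios were -1.62, -1.59 and -1.82, a mean of -1.68 ± 0.13 (adjusted p = 4.34e-05), or 3.20-fold lower. Sfrp2 was detected in both channels on all arrays, but its EpH4-PR signal lay not far above the negative controls. The size of its ratio varied, at -2.73 with normexp offset 0, -2.92 with the scanner's log ratio and -1.30 with median centring. Sfrp4 was below the reference level on all arrays as well, but unevenly, at -0.91, -1.06 and -0.42 (mean -0.79 ± 0.34, adjusted p = 0.00573), and was called lower at -1.54 with normexp offset 0 and -1.87 with the scanner's log ratio. Sfrp1 and Sfrp5, both detected on all arrays, lay at 0.15 ± 0.15 and 0.09 ± 0.08, and Sfrp5 turned to -0.06 with median centring.

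The Dkk proteins, which block Lrp5 and Lrp6, and Wif1, which binds Wnts, gave little signal. Both Dkk1 probes were off or at the edge of detection in EpH4-PR RNA, on 1 array and on none, and Dkk4 was detected on no array in either channel. Dkk2 was detected in reference RNA on 2 arrays and in EpH4-PR RNA on none. Its log2 ratio of -0.21 ± 0.07 gives neither a size nor a bound, since its reference signal did not pass the negative controls' 95th percentile on any array. Dkk3 was detected in EpH4-PR RNA on 1 array and had a log2 ratio of -0.36 ± 0.04, which reached a call at -1.10 with normexp offset 0 and at -1.67 with the scanner's log ratio. Wif1 was detected in EpH4-PR RNA on 2 arrays and lay at 0.16 ± 0.04, or -0.09 with median centring. Dkk2, Dkk3 and Wif1 passed the adjusted p under the size for a call, while for Dkk1 and Dkk4 a difference from the reference RNA was not detectable.

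The destruction complex had no called probe. Axin1, its scaffold, was 0.85, 0.77 and 0.85 above the reference level on the log2 scale (mean 0.83 ± 0.05, adjusted p = 0.000119), below the size for a call, which it reached at 1.15 with normexp offset 0 and 1.60 with the scanner's log ratio. Axin2, the inducible Axin and itself a common target of β-catenin signalling, was below the reference level at -0.30, -0.23 and -0.57 (mean -0.37 ± 0.18, adjusted p = 0.0144), and at -1.02, a call, with the scanner's log ratio. The 2 Gsk3b probes had means of 0.10 ± 0.13 and 0.45 ± 0.07, the latter called at 1.20 with the scanner's log ratio. The 4 Apc probes ranged from -0.50 ± 0.14 to 0.27 ± 0.24 and did not share a sign. The Catnb probes, for β-catenin, were detected in both channels on all arrays, with log2 ratios of 0.07 ± 0.08, -0.11 ± 0.06 and -0.09 ± 0.10, none past the adjusted p. One of them read 2188, 2180 and 2315 in Cy5 and 822, 781 and 784 in Cy3, so a probe near a ratio of 0 after loess can still be much brighter in Cy5.

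Both nuclear factors were called lower through 1 probe each, and both had a second probe below the reference level by less. Lef1 and Tcf7 bind DNA with β-catenin. The called Lef1 probe read 85.7, 85.9 and 67.9 in the EpH4-PR channel and 327, 318 and 296 in the reference channel. Its log2 ratios of -2.46, -2.46 and -2.73 gave a mean of -2.55 ± 0.16 (adjusted p = 2.41e-05). It was well above background in EpH4-PR RNA on 2 of 3 arrays and above the negative controls' 95th percentile on 1. The size of its ratio therefore rests on a signal near background, and it was -4.20 with normexp offset 0, -4.63 with the scanner's log ratio and -2.12 with median centring, below the reference level each time. The other Lef1 probe was at -0.73, -0.54 and -0.63 (mean -0.63 ± 0.09, adjusted p = 0.000523), under the size for a call, which it passed at -1.38 with normexp offset 0 and -1.64 with the scanner's log ratio. This probe too was near background, with 95.5, 85.6 and 76.9 in the EpH4-PR channel. In each channel it passed the negative controls' 95th percentile on 2 of 3 arrays. The called Tcf7 probe was at -1.004, -0.996 and -1.32 (mean -1.11 ± 0.18, adjusted p = 0.00029), or 2.15-fold lower, and without replicate 3 it stayed just short of the call at -0.9998. The other Tcf7 probe was at -0.29, -0.28 and -0.46 (mean -0.34 ± 0.10). All 12 values of these 4 probes lay below 0, and within each gene the arrays of the 2 probes did not overlap.

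Probes of a gene often differed by more than the arrays did. Of 15 genes with several probes, 8 had probes more than 0.5 log2 units apart, 6 had probes on both sides of 0, and 3 (Wnt6, Lef1 and Tcf7) had some but not all probes called. Averaging the probes of a gene left 3 lower calls, and the higher calls of Wnt10a and Wnt7b, which rest on 1 probe each, were the same.

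The other genes of the pathway were read from 3 lists of genes. Membrane and secreted regulators had 29 probes of 21 genes, with 1 called higher and 2 lower (2.25% and 3.85% of all probes). Their median log2 ratio was 0.00. Celsr1, a planar polarity cadherin, was higher at 1.05, 0.81 and 1.29 (mean 1.05 ± 0.24), and fell short at 0.93 without replicate 3. Wls, which carries Wnt proteins to the cell surface, was lower at -1.04 ± 0.01, yet it lay at 0.28 with median centring in place of loess. Rnf43, a ubiquitin ligase that removes Frizzleds, was lower at -1.01 ± 0.07, but short of the call at -0.97 without replicate 3 and at -0.99 with negative controls as background.

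Cytoplasmic and nuclear transducers had 46 probes of 25 genes, with 2 called higher and 2 lower (2.25% and 3.85% of all probes). Their median was 0.03. Both higher probes were for Tle1, a corepressor of Tcf factors, at 1.71 ± 0.07 and 1.39 ± 0.06, and its remaining probe was at 0.48 ± 0.08. Tcf7l1, a Tcf factor that mostly represses and is named Tcf3 in the array file, was lower at -2.20, -2.17 and -2.38 (mean -2.25 ± 0.11, adjusted p = 2.2e-05). Tle2, another corepressor, was lower at -1.71 ± 0.08, and at -0.99 with median centring. Tle1 and Tle2 thus lay on opposite sides of the reference level.

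Target genes had 22 probes of 15 genes, with 2 called higher and 4 lower (2.25% and 3.85% of all probes). Their median was -0.13. The higher probes were for Sox9, a transcription factor of epithelial progenitors, at 1.05 ± 0.07 and 1.03 ± 0.00, while its remaining probe was at 0.03 ± 0.14. The lowest were Jun at -2.21 ± 0.06 and Wisp1, a matricellular protein, at -1.95 ± 0.02. Wisp2 (-1.30 ± 0.15) and 1 of 3 Cd44 probes (-1.35 ± 0.10) were the other lower calls. With median centring Jun kept its call at -1.16, while Wisp1 at -0.80, Wisp2 at -0.95 and the Cd44 probe at -0.10 lost theirs. Ccnd1 (cyclin D1) at 0.72 ± 0.05 and the 3 Myc probes, at -0.29 to 0.29, were not called, and with median centring all 4 lay above 1. Target genes had calls in both directions, as did the transducers, the membrane regulators and all probes, on counts too small to read more from.

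The promoters of the genes called lower that have a single start in RefSeq's table were read for the hexamer CTTTGA, which reads TCAAAG on the opposite strand and is the core of Tcf/Lef sites. They are shown because Lef1, Tcf7 and Tcf7l1, which bind this core, were themselves called lower. A link between the levels of these factors and the genes shown was not tested. Each window holds the 250 bases before the start in GRCm38.p6, written 5′ to 3′ on the gene's strand, with the hexamer in capitals.
Fzd1, chr5:4758217-4758466, minus strand: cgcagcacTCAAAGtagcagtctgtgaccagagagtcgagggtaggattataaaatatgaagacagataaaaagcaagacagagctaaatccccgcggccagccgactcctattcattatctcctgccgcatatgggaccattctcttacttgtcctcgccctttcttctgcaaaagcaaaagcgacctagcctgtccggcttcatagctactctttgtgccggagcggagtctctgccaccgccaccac
Sfrp2, chr3:83766071-83766320, plus strand: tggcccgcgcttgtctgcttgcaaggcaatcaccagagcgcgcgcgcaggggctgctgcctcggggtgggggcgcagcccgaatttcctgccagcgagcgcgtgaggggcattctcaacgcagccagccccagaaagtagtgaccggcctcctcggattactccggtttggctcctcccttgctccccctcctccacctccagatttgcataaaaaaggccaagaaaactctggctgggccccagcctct
Wnt6, chr1:74771642-74771891, plus strand: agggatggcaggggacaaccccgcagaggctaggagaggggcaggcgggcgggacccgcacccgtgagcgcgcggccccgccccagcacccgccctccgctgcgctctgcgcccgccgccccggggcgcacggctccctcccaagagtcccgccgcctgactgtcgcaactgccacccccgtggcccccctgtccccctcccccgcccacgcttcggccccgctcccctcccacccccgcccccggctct
Fzd1 held the hexamer and Sfrp2 and Wnt6 did not. Among 37 windows of 30 member genes 6 held it (16.2%), in Dkk1, Fzd1, Gsk3b, Lef1, Wnt11 and Wnt5b, and among all 32851 windows 13.8% did. The hexamer of steroid hormone response elements, TGTTCT, which reads AGAACA on the opposite strand, was in 6 member windows (16.2%), of Axin2, Dkk2, Lef1, Wnt5b and Wnt8b, and in 16.1% of all windows. A match is a run of letters and not a measured binding site, and the members' shares were close to those of all promoters.

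**Figure D3:**
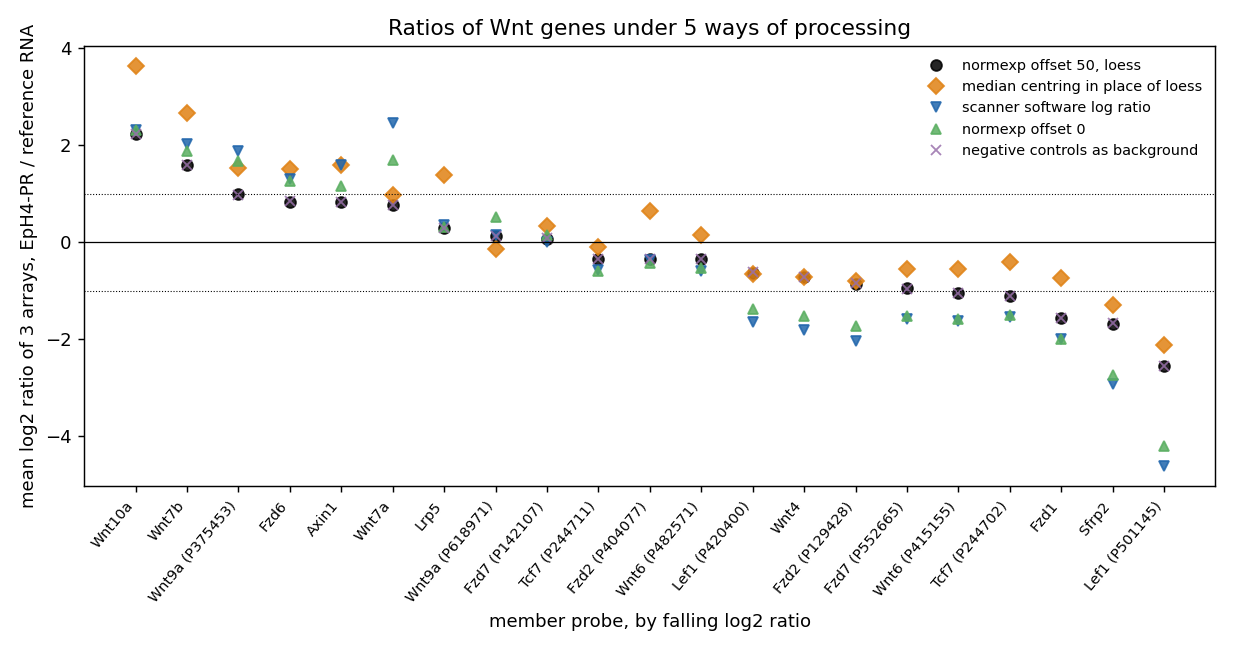
Mean log2 ratio, EpH4-PR against reference, of 3 arrays (vertical axis) under 5 ways of processing, for the 10 probes of genes with a call and for 11 further probes of Wnt9a, Fzd6, Axin1, Wnt7a, Lrp5, Fzd7, Fzd2 and Wnt4 picked after their values were seen; dotted lines mark 1 and -1. Wnt10a, Wnt7b, Sfrp2 and the lower Lef1 probe stay past the dotted lines under all 5, whereas median centring brings Fzd1, Wnt6 and Tcf7 inside them and lifts Lrp5, Fzd6 and Axin1 above 1.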

How the data were processed

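Each of 3 slides held 1 two-colour array of EpH4-PR RNA and reference RNA. The authors deposited the scanner output of Agilent Feature Extraction 8.1.1.1, with a mean and a background intensity for each spot and channel, a log10 ratio of Cy5 over Cy3, and other marks such as well above background. A deposited table with fold changes, p-values and intensities of 2 unnamed sides was not used. The methods name no normalization and use Student's t-test for other assays.

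Mean spot intensities were corrected with limma 3.58.1 in R 4.3.3 (normexp, offset 50), then loess was run in each array with control spots at weight 0. Outlier spots (150, 18 and 3, none of a member) were left out and spots of a probe averaged. An intercept was fitted with lmFit and eBayes, with Benjamini-Hochberg adjustment over all 41174 probes. Calls needed a mean log2 ratio of at least 1 in size beside an adjusted p under 0.05. No averaging was done over the probes of a gene. The fit was run on simulated arrays in which only probes brighter than the median were given a difference, so recovery in dim probes was not tested. Current symbols came from RefSeq accessions (57 of 64 member probes matched), and promoters from RefSeq's GRCm38.p6. Array values per replicate are given for called probes detected in a channel on all arrays and for detected probes of the same genes. From each pathway list the 2 highest and 2 lowest calls are named, with array values for Celsr1 and Tcf7l1 and a mean and SD for the rest. Other members named with values, the promoters and the negative-control background were chosen after values were seen. The members and lists were chosen with earlier results of these data known. Alternatives covered background, normalization, filters, spot summary, each array left out, the test and the call rule.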

Additional observations from a re-analysis of the deposited data

How the results depend on the processing

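The calls of Wnt10a (log2 ratio 2.19 to 3.64 over 14 alternatives), Wnt7b (1.56 to 2.67), Sfrp2 (-2.92 to -1.30) and the lower Lef1 probe (-4.63 to -2.12) held under every alternative run. With median centring in place of loess, Fzd1 (-0.73), Wnt6 (-0.56) and Tcf7 (-0.40) lost theirs and 5 probes gained a higher call (Axin1 1.59, Wnt9a 1.54, Fzd6 1.51, Lrp5 1.38, Fzd4 1.14); the second Wnt6 probe turned from -0.35 to 0.15, and 13 of 64 member probes changed sign. Member probes called higher rose from 2 to 7 with median centring, 7 with normexp offset 0, 9 with the scanner's log ratio and 15 by adjusted p alone. Those called lower went from 5 to 2, 13, 14 and 21 in that order, and to 3 with the probes of a gene averaged. Calls on the 3 pathway lists went from 13 to 26, 23, 26 and 56. Of all probes, 2.25% were called higher and 3.85% lower, and with median centring 17.1% and 1.72%. With offset 0 these shares were 7.57% and 9.49%, and with the scanner's log ratio 8.78% and 9.44%. By adjusted p alone 50.3% of all probes passed. Member probes detected in reference RNA fell from 47 to 14 against the negative controls' 95th percentile. Over all probes, 928 were higher and 1584 lower, a 36.9% share of higher calls, which became 90.8% with median centring (7029 and 709), 48.2% with the scanner's log ratio (3616 and 3887) and 44.3% with offset 0 (3115 and 3909).

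Leaving out each array in turn gave 2 to 3 higher and 4 to 5 lower members, 11 to 13 pathway calls, and 43 to 45 and 48 to 52 members detected in EpH4-PR and reference RNA. The methods' t-test called 925 and 1583 probes over the whole array at the threshold, and 893 and 1552 after Benjamini-Hochberg, and kept all 7 members. Negative controls as background, chosen after seeing the data, changed no member's call. This setting put a constant per array and channel in place of the local background, before the same normexp fit. Ratios of called probes hardly moved (Sfrp2 from -1.68 to -1.66, Wnt10a from 2.23 to 2.24). It therefore could not test whether calls of dim probes hold under a higher background. No paired analysis was possible because there is 1 group. Slide could not be tested, since each held 1 array. Dim signal over background limits most ligands and inhibitors.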
